A study of Mus musculus with 73 samples.

Results

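The comparison described here set microglia of 5xFAD mice that lack CD33 against microglia of 5xFAD mice with CD33 intact, both at 8 months of age. Its members are the 12 libraries labelled 5xFAD;CD33-/- and the 11 labelled 5xFAD that the authors deposited in a common table, 23 of the 73 libraries of the series. All mice were of the C57BL/6 strain per the labels, and both groups carry the 5xFAD transgenes, which are driven by a neuronal Thy1 promoter and cause early amyloid deposition. The 5xFAD;CD33-/- group is labelled as lacking both copies of Cd33. How that allele was made is not given in the sources used here. Whether the groups also differ in sequence near Cd33 or elsewhere was not tested. Such differences and the loss of CD33 cannot be told apart. Cells were taken from brain by sorting for CD11b and CD45 and were profiled by RNA sequencing with a stranded mRNA kit and single-end 50-base reads. Titles carry animal-like numbers, but nothing states that each library came from a separate animal, so p-values measure the spread between these libraries, which may be technical. For values set beside the 8-month data there were also 4 5xFAD;CD33-/- and 9 5xFAD libraries at 4 months, in a table normalized separately.

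CD33 is a sialic acid-binding receptor of the Siglec family on microglia and other myeloid cells. The cytoplasmic tail of human CD33 carries inhibitory tyrosine motifs that recruit phosphatases, and the human receptor dampens uptake and activation. Whether mouse CD33 signals in the same way was not tested. TREM2, with its adaptor DAP12, activates signalling through the kinase Syk in response to lipids and apolipoproteins. Human variation at both the CD33 and the TREM2 gene has been linked to Alzheimer's disease. The title of the series places TREM2 downstream of CD33, so the question at 8 months is which transcripts of the microglial pool differ when CD33 is missing.

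Recovered reads per library ran from 26753820 to 42581514 in 5xFAD;CD33-/- and from 29512952 to 42788464 in 5xFAD. The sorted cells carried their defining transcripts: all 12 microglia and macrophage markers passed the filter, and their summed level was 23536 to 40064 RPKM (reads per unit of gene length, scaled to library size) in 5xFAD;CD33-/- and 24358 to 38319 RPKM in 5xFAD. Itgam, which encodes CD11b, was at 225 to 361 RPKM in 5xFAD;CD33-/- and 271 to 371 RPKM in 5xFAD. The titles begin with 8 prefixes, each shared by libraries of both groups. On the first principal component, which held 38.2% of the variance, 6 libraries stood apart: the 4 of prefix GAa15 (5xFAD;CD33-/- replicates 4 and 8, 5xFAD replicates 1 and 9) and 5xFAD replicates 6 and 7 of prefix GAa17. In GAa17 the 2 5xFAD;CD33-/- libraries held Xist and the 2 5xFAD libraries held Y-linked transcripts, so genotype and sex cannot be told apart there. In the other 7 prefixes all libraries matched in this respect. Over all prefixes, Xist was over 1 RPKM in 8 of the 12 5xFAD;CD33-/- libraries and 5 of the 11 5xFAD libraries. The main test held no term for sex.

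Cd33 (ENSMUSG00000004609, chromosome 7, 43524216 to 43544428 on GRCm38, minus strand) was nearly absent from all but 1 of the knockout libraries. It lay between 0.0349 and 0.605 RPKM in 11 of the 12 5xFAD;CD33-/- libraries, with 4 to 49 reads each, against 102 to 150 RPKM with a median of 121 in 5xFAD. One exception was the library labelled 5xFAD;CD33-/- replicate 7, which held 19.1 RPKM and 1581 reads, 15.5% of the 5xFAD mean, against its label. The groups still did not overlap, and the log2 change was -7.23 (SE 0.423, adjusted p = 6.64e-11, limma) with that library and -7.65 without it. In bulk samples, fewer cells of a type and less RNA per cell cannot be told apart.

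Trem2 (chromosome 17) did not pass the test. Its level ran from 602 to 1169 RPKM with a median of 764 in 5xFAD;CD33-/- and from 660 to 1145 RPKM with a median of 881 in 5xFAD, so the groups overlapped over nearly their whole range. The log2 change was -0.14 (SE 0.111, adjusted p = 0.585, limma), lower than the 5xFAD mean in 8 of 12 knockout libraries and within 5 of 8 title prefixes.

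Across all 11345 genes tested with limma, 374 passed at an adjusted p under 0.05, which is 3.30%. Of these, 335 were higher in 5xFAD;CD33-/- (2.95%) and 39 were lower (0.344%), and the median log2 change of all tested genes was -0.02. Within 10 Mb of Cd33 on chromosome 7 there were 8 higher and 17 lower calls. On the rest of chromosome 7 there were 19 higher and 1 lower, and on the other chromosomes 308 higher and 21 lower. Without the 4 libraries of prefix GAa17, an alternative chosen after seeing the data, 17 genes passed (0.150%), 9 higher (0.0793%) and 8 lower, all 17 among the 374. Also chosen after seeing the data, leaving out the 6 libraries that stood apart gave 271 calls (2.39%), and the title prefix as a block without GAa17 gave 35 (0.309%). The title prefix as a block over all libraries gave 423 (3.73%), 293 higher and 130 lower, and the mean of the endothelial markers as a covariate gave 14 (0.123%). Leaving out 5xFAD;CD33-/- replicate 7 gave 207 (1.82%). The difference between the groups itself differed between GAa17 and the other prefixes for 7 genes (0.0617%). Leaving out 1 library at a time moved the count between 188 and 561. It changed by more than 1.5 times without 5xFAD replicate 1 (249), 4 (215), 5 (188), 6 (196), 7 (194) or 10 (236), and without 5xFAD;CD33-/- replicate 3 (207), 5 (212), 6 (246), 7 (207) or 11 (243).

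**Figure D1:**
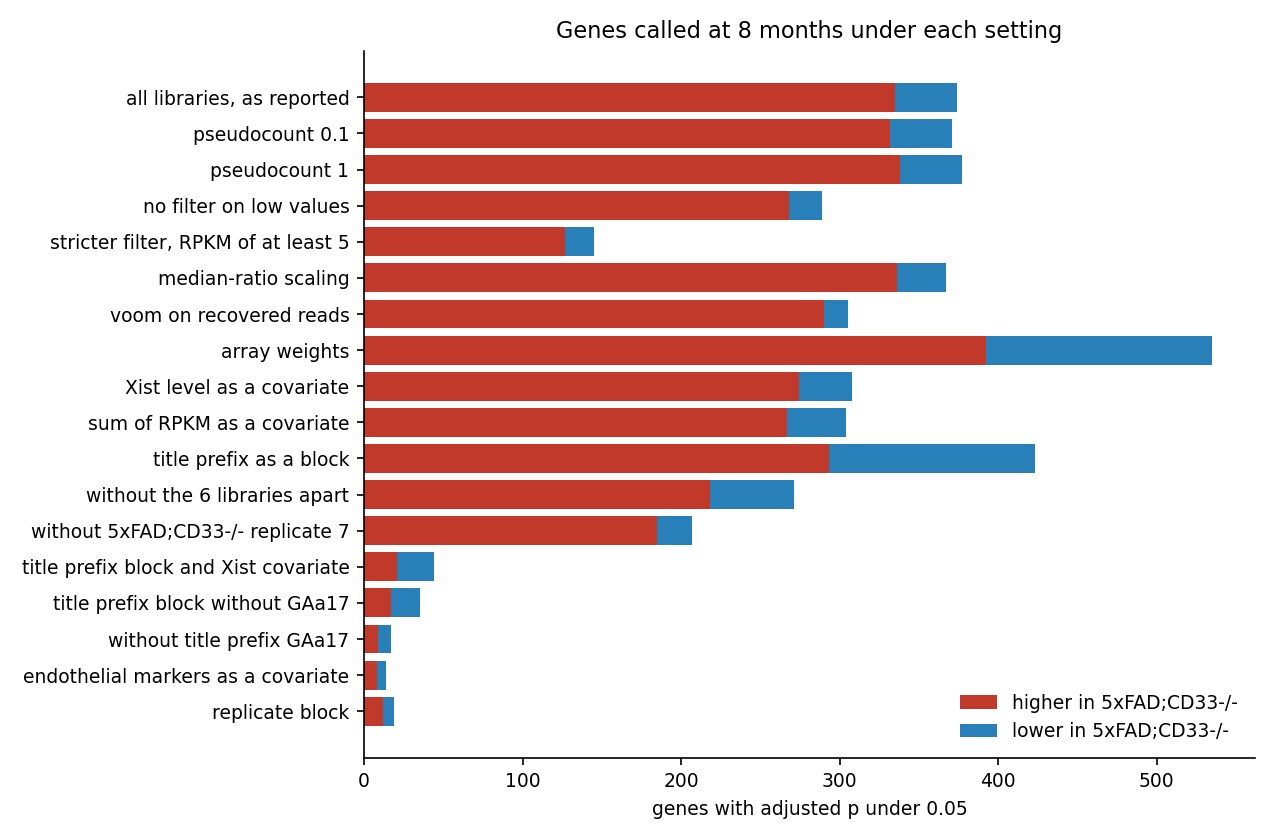
Genes with an adjusted p under 0.05 at 8 months (horizontal axis) under each setting (rows), split into those higher and lower in 5xFAD;CD33-/-. The count was 374 with all libraries and 17 without the title prefix GAa17.

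In 11 of the 11345 genes (0.0970%) the 12 knockout libraries and the 11 5xFAD libraries did not overlap at all: 6 were higher in every 5xFAD;CD33-/- library (0.0529%) and 5 lower (0.0441%). The lower ones included Cd33, Klk8, Ftl1 and Cd37. The 6 higher ones were Ftl2, Slc6a16, Gm15545, Cpt1c, Emp3 and Fcgrt. All but Ftl2 lie within 3 Mb of Cd33. These 11, with Dhdh and Lgi4, were the 13 genes that passed in each of the 41 fits run that tested them.

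Ftl1, on chromosome 7 (45457944 to 45459884, minus strand), encodes the light chain of ferritin, the iron-storage protein. It stood at 23.5 to 73.5 RPKM with a median of 34.1 in 5xFAD;CD33-/-, against 131 to 373 RPKM with a median of 198 in 5xFAD. Every knockout library was below every 5xFAD library, and the log2 change was -2.52 (SE 0.203, adjusted p = 1.32e-08, limma). The listed gene Ftl2, named Ftl2-ps in GENCODE M21, is a processed pseudogene, an intronless copy of ferritin light chain on chromosome 4 (125504288 to 125504839, plus strand). It went the other way: 9.08 to 41.7 RPKM with a median of 30.4 in 5xFAD;CD33-/-, against 0 to 2.57 RPKM with a median of 0.0583 in 5xFAD. In 5xFAD 3 libraries were listed at 0, and the log2 change was 5.09 (SE 0.302, adjusted p = 6.64e-11, limma).

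The copies are nearly the same, and how the authors' counting treated reads that match both was not tested. Over the 552 bases of the Ftl1 coding sequence and the aligned stretch of Ftl2-ps (GENCODE M21, GRCm38), 7 differed, an identity of 98.7%. Of 503 windows of 50 bases, the read length, 54.3% were identical in both copies and 97.0% had at most 2 differences. Reads from identical windows cannot be assigned to either copy, so the separate values of Ftl1 and Ftl2 are uncertain.

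Klk8 and Cd37 were also lower without overlap. Klk8 encodes the secreted serine protease neuropsin. It was at 6.09 to 20.01 RPKM with a median of 10.2 in 5xFAD;CD33-/-, against 33.2 to 57.0 RPKM with a median of 41.9 in 5xFAD (log2 change -1.95, SE 0.138, adjusted p = 1.97e-09, limma). Cd37 encodes a tetraspanin of leukocyte membranes, and its level was 55.5 to 108 RPKM with a median of 71.2 in 5xFAD;CD33-/-, against 108 to 216 RPKM with a median of 153 in 5xFAD. Its groups only just parted, at 107.9 and 108.3 RPKM, and the log2 change was -1.09 (SE 0.118, adjusted p = 2.93e-06, limma).

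Among the genes that were higher without overlap, Slc6a16 and Gm15545 were close to background in most 5xFAD libraries. Slc6a16, of the sodium-dependent SLC6 transporter family, was at 2.09 to 4.35 RPKM with a median of 2.52 in 5xFAD;CD33-/-, against 0 to 1.26 RPKM with a median of 0.0797 in 5xFAD (log2 change 2.24, SE 0.173, adjusted p = 5.98e-09, limma). Gm15545, annotated as an antisense RNA, was at 1.83 to 4.44 RPKM in 5xFAD;CD33-/-, against 0.303 to 1.48 RPKM in 5xFAD (log2 change 1.53, SE 0.141, adjusted p = 1.63e-07, limma). The strand setting of the count is not given in the sources used here, so reads of Gm15545 and of the gene it overlaps may not be separable. Cpt1c encodes a carnitine palmitoyltransferase isoform known from neurons, and it lay at 1.28 to 1.96 RPKM in 5xFAD;CD33-/-, against 0.164 to 0.847 RPKM in 5xFAD (log2 change 1.19, SE 0.0923, adjusted p = 5.98e-09, limma).

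Fcgrt and Emp3 were expressed well in both groups. Fcgrt, the heavy chain of the neonatal Fc receptor that salvages IgG and albumin, was at 88.0 to 111 RPKM with a median of 98.5 in 5xFAD;CD33-/-, against 58.3 to 72.2 RPKM with a median of 63.7 in 5xFAD. It had the narrowest spread of the 11, and the log2 change was 0.61 (SE 0.0452, adjusted p = 3.04e-09, limma). Emp3, a small membrane protein, stood at 22.998 to 34.4 RPKM in 5xFAD;CD33-/-, against 11.5 to 22.6 RPKM in 5xFAD (log2 change 0.74, SE 0.105, adjusted p = 0.000264, limma). Dhdh, a dihydrodiol dehydrogenase, overlapped slightly, with 7.32 to 9.36 RPKM in 5xFAD;CD33-/- against 4.61 to 7.90 RPKM in 5xFAD (log2 change 0.49, SE 0.0659, adjusted p = 0.000116, limma). Lgi4, a secreted protein known for its part in Schwann cell myelination, lies 12.5 Mb from Cd33 on its centromeric side. It was at 2.35 to 7.34 RPKM in 5xFAD;CD33-/-, against 0.935 to 6.18 RPKM in 5xFAD (log2 change 1.27, SE 0.224, adjusted p = 0.00548, limma).

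**Figure D2:**
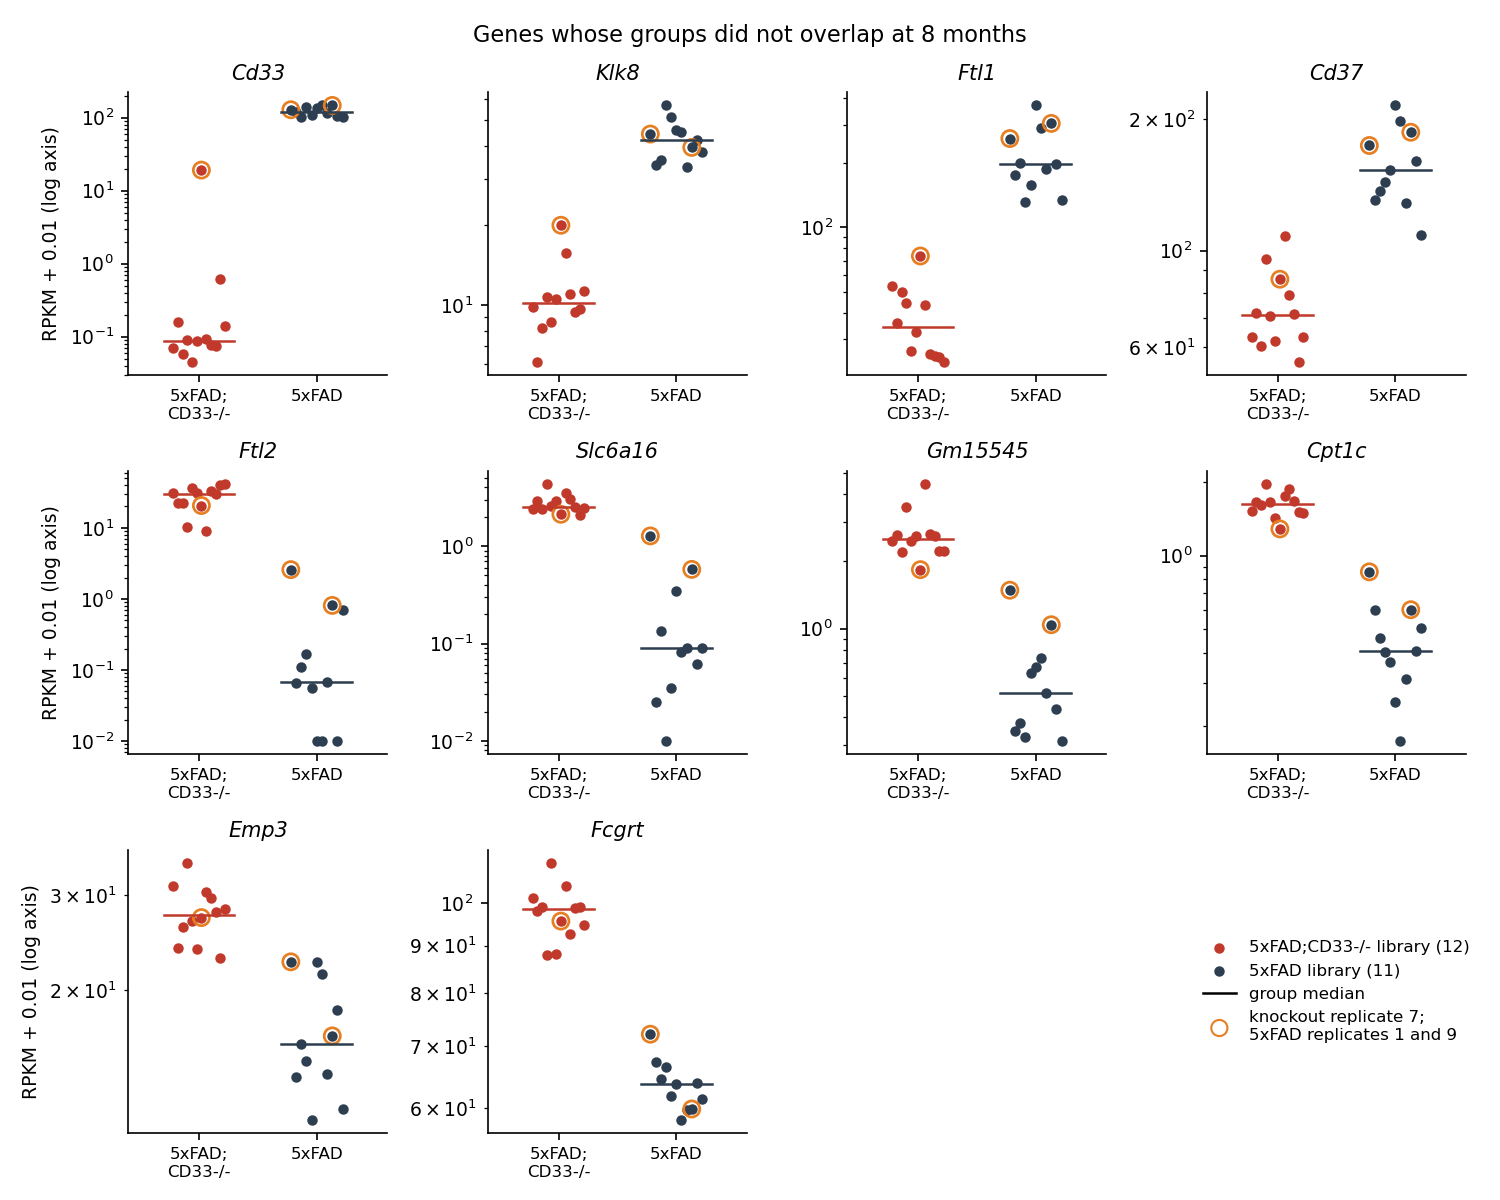
RPKM plus 0.01 on log axes for 10 genes whose groups did not overlap, in each of the 12 5xFAD;CD33-/- libraries (left) and 11 5xFAD libraries (right), with group medians as lines. Circles mark 5xFAD;CD33-/- replicate 7, with 19.1 RPKM of Cd33, and 5xFAD replicates 1 and 9, with the highest Slc6a16 and Gm15545 among the 5xFAD libraries.

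The changed genes of chromosome 7 were gathered on the distal side of Cd33. Within 10 Mb of Cd33, 113 genes were tested and 25 passed (22.1%), 8 higher and 17 lower, against 2.76% of 724 genes on the rest of the chromosome and 3.13% of 10508 genes on other chromosomes. From Cd33 itself, which is counted, to 3 Mb distal of it, 23 of 62 tested genes passed, and up to 3 Mb on the other side 0 of 12 passed; the 3 Mb limit was chosen after seeing the data. Within that stretch, genes with changes in opposite directions lay side by side. By position among the called genes, Slc6a16 (higher) came directly after Cd37 (lower). Without prefix GAa17, 13 of the 17 genes that passed lay within 10 Mb of Cd33. For these genes, loss of CD33 and other differences carried near its gene cannot be told apart.

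The smaller changes near Cd33 included genes of immune and growth signalling. Irf3, the transcription factor that turns nucleic acid sensing into interferon output, was at 8.61 to 12.9 RPKM in 5xFAD;CD33-/-, against 10.9 to 15.7 RPKM in 5xFAD (log2 change -0.37, SE 0.0655, adjusted p = 0.00538, limma). Akt1s1, an inhibitory subunit of mTORC1, had a log2 change of -0.42 (SE 0.102, adjusted p = 0.0227, limma), and the ribosomal protein gene Rpl13a of -0.49 (SE 0.0905, adjusted p = 0.00724, limma). Il4i1, a secreted amino acid oxidase, was higher by 0.53 (SE 0.122, adjusted p = 0.0194, limma). These 4 calls held with the title prefix as a block. Without prefix GAa17 they were lost, with log2 changes of -0.32 for Irf3 (adjusted p = 0.0786), -0.34 for Akt1s1 (0.284), -0.38 for Rpl13a (0.152) and 0.49 for Il4i1 (0.256). With the prefix as a block and without GAa17, 20 of the 62 genes from Cd33 to 3 Mb distal passed, Irf3, Akt1s1 and Rpl13a among them and Il4i1 not (adjusted p = 0.0827). Siglece, a nearby Siglec gene, was at 19.4 to 59.8 RPKM in 5xFAD;CD33-/- and 16.7 to 45.5 RPKM in 5xFAD and did not pass with all libraries (log2 change 0.23, SE 0.208, adjusted p = 0.628, limma). Its difference between 5xFAD;CD33-/- and 5xFAD was above 0 in 7 of 8 title prefixes, from 0.27 to 0.79 on the log2 scale, and -1.02 in GAa17. With the prefix as a block and without GAa17 Siglece passed as higher (log2 change 0.52, adjusted p = 0.00229, limma). With all libraries Cd33 alone passed of the 7 tested Siglec receptor genes, beside 3.30% of all genes.

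**Figure D3:**
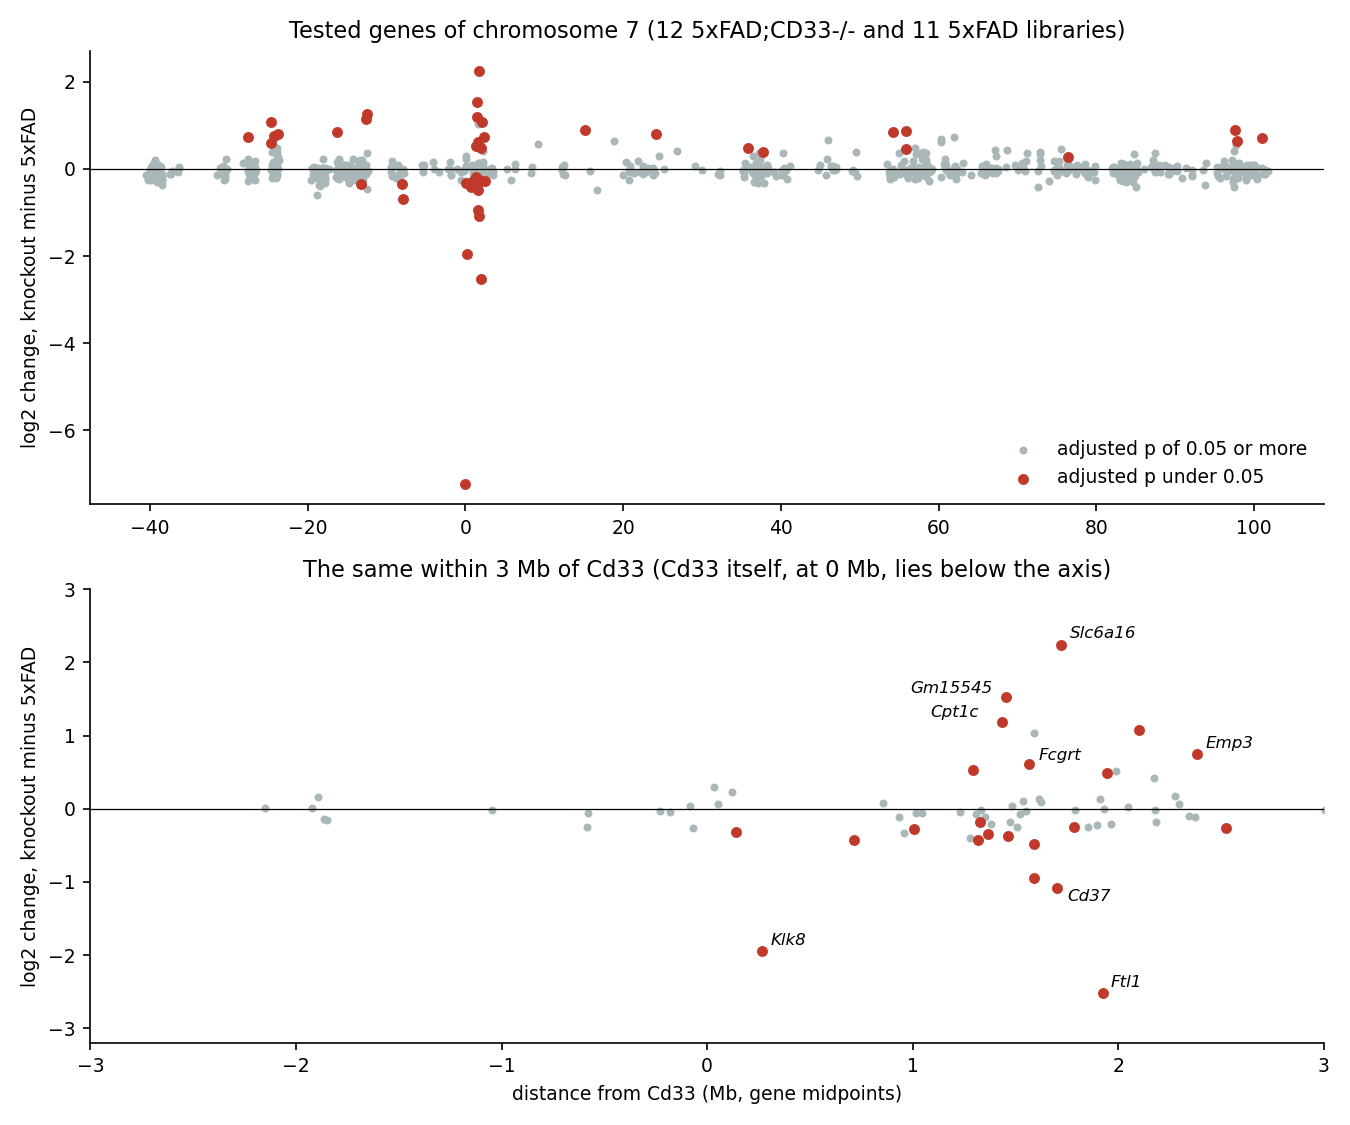
Log2 change (5xFAD;CD33-/- minus 5xFAD, vertical axis) of the tested genes of chromosome 7 against the distance of their midpoints from Cd33 in Mb, for the whole chromosome (top) and within 3 Mb (bottom). Of the 62 genes from 0 to 3 Mb on the right side 23 passed, in both directions, and of the 12 on the left side none.

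A few libraries sat between the groups for these genes. The library labelled 5xFAD;CD33-/- replicate 7 had the highest Cd33, Klk8 (20.01 RPKM) and Ftl1 (73.5 RPKM) of the 12 knockout libraries and the lowest Cpt1c (1.28 RPKM) and Gm15545 (1.83 RPKM), so in 5 of the 11 genes it was the knockout library nearest to 5xFAD. In Emp3 and Fcgrt it was in the middle of its group. On the other side, 5xFAD replicate 1 was the 5xFAD library nearest to the knockouts in Ftl2 (2.57 RPKM), Slc6a16 (1.26 RPKM), Gm15545 (1.48 RPKM), Cpt1c (0.847 RPKM), Emp3 (22.6 RPKM) and Fcgrt (72.2 RPKM). 5xFAD replicate 9 came next in Ftl2 (0.799 RPKM), Slc6a16 (0.567 RPKM) and Gm15545 (1.03 RPKM). Their Cd33 was within the range of the other 5xFAD libraries, at 128.7 RPKM in replicate 1 and 147.6 RPKM in replicate 9. Both share the prefix GAa15 with 5xFAD;CD33-/- replicates 4 and 8. Those knockout libraries had the lowest Ftl2 of the 12, at 10.3 RPKM in replicate 4 and 9.08 RPKM in replicate 8. Their Slc6a16 and Gm15545 were the highest of the 12. The part of RNA passing between libraries in these values was not tested. Without 5xFAD;CD33-/- replicate 7 the 11 calls held.

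The same genes were examined in the 4-month libraries, which are separate from the 8-month ones. All 11 genes whose groups did not overlap at 8 months were also apart at 4 months, in the same direction, where 0.888% of 12046 genes did not overlap (0.158% higher and 0.731% lower in 5xFAD;CD33-/-). Klk8 was at 10.3, 8.15, 7.02 and 6.86 RPKM in the 4 5xFAD;CD33-/- libraries, against 58.0 to 87.5 RPKM with a median of 65.1 in the 9 5xFAD libraries. Ftl1 was at 118, 91.9, 90.5 and 133 RPKM in 5xFAD;CD33-/-, against 172 to 260 RPKM with a median of 231 in 5xFAD. Ftl2 stood at 39.8, 26.8, 25.4 and 28.1 RPKM in 5xFAD;CD33-/-, against 0 to 0.128 RPKM in 5xFAD. Slc6a16 was at 2.83, 1.89, 1.65 and 2.23 RPKM in 5xFAD;CD33-/-, against 0 to 0.0715 RPKM in 5xFAD. Unlike at 8 months, no 5xFAD library at 4 months came near the knockout range of Ftl2 or Slc6a16.

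Cd37 was at 81.6, 73.8, 69.3 and 95.3 RPKM in the 4-month 5xFAD;CD33-/- libraries, against 144 to 181 RPKM in 5xFAD. Irf3, Akt1s1, Rpl13a, Fuz and Nudt19 were also lower without overlap at 4 months, and Lgi4 and Dhdh higher. Irf3 ran from 11.6 to 13.9 RPKM in 5xFAD;CD33-/- and from 15.4 to 21.1 RPKM in 5xFAD, and Lgi4 from 4.50 to 9.07 RPKM in 5xFAD;CD33-/- and from 1.72 to 4.05 RPKM in 5xFAD. The 4-month table was normalized on its own, so levels are not compared between ages.

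Away from chromosome 7 the largest increase was that of Ftl2. Genes of brain endothelium, the inner lining of blood vessels, were also higher there, by less. Of 20 endothelial markers, all measured, 18 were higher in 5xFAD;CD33-/- and none lower, beside 2.95% higher over all genes, and the median log2 change of the list was 0.95 against -0.02 over all genes. Ly6c1, a surface antigen of brain endothelium, was at 50.4 to 229 RPKM with a median of 100.4 in 5xFAD;CD33-/-, against 20.03 to 75.8 RPKM with a median of 58.0 in 5xFAD. Its groups overlapped, and the log2 change was 1.27 (SE 0.249, adjusted p = 0.0109, limma). Sox17, an endothelial transcription factor, was at 2.51 to 8.21 RPKM in 5xFAD;CD33-/- against 0.833 to 3.57 RPKM in 5xFAD (log2 change 0.95, SE 0.203, adjusted p = 0.0139, limma). Cldn5, the main claudin of the tight junctions of the blood-brain barrier, was at 52.0 to 270 RPKM in 5xFAD;CD33-/- against 33.5 to 125 RPKM in 5xFAD (log2 change 1.13, SE 0.277, adjusted p = 0.0240, limma).

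Of the 12 largest increases by fold among called genes with at least 2 RPKM on average in 1 group and no provisional symbol, which leaves out Gm15545 (log2 change 1.53), 3 were Ftl2, Slc6a16 and Lgi4. The other 9 were Ctla2a, Eltd1, Ly6c1, Ly6a, Plat, Galnt15, Nostrin, Sdpr and Abcb1a, with log2 changes from 1.19 to 1.47. Eltd1 (Adgrl4) is an adhesion receptor of endothelial cells, Abcb1a the P-glycoprotein drug pump of the blood-brain barrier, Plat the tissue plasminogen activator and Nostrin a partner of endothelial nitric oxide synthase. All 12 passed with the title prefix as a block, and without prefix GAa17 or with endothelial markers as a covariate 3 of the 12 passed in each fit. Abcb1a had a log2 change of -0.09 with that covariate. It holds Ly6c1, Ly6a and Abcb1a themselves, so part of this is built in.

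The endothelial level varied strongly between libraries of a group. The mean log2(RPKM + 0.5) of the 20 markers was 4.22 to 5.94 in 5xFAD;CD33-/- and 3.54 to 5.07 in 5xFAD. Within title prefixes it was higher in 5xFAD;CD33-/- in 7 of 8, by 2.40 in GAa3, 2.08 in GAa17, 1.197 in GAa4, 0.65 in GAa18, 0.62 in GAa2, 0.40 in GAa16 and 0.14 in GAa15, and it differed by -0.04 in GAa1. The highest 5xFAD;CD33-/- libraries were replicates 3, 5 and 7, and the lowest 5xFAD libraries were replicates 5, 7 and 6, all of GAa3 or GAa17. Without prefix GAa17, 0 of the 20 markers passed in limma, 19 had an unadjusted p under 0.05, and the median log2 change was 0.70. With the prefix as a block 16 passed, and without the 6 libraries that stood apart 14 passed. Leaving out 1 library at a time gave 9 to 19, with the fewest without 5xFAD replicate 5 (9), 6 (10) or 7 (10) and 12 without 5xFAD;CD33-/- replicate 3.

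**Figure D4:**
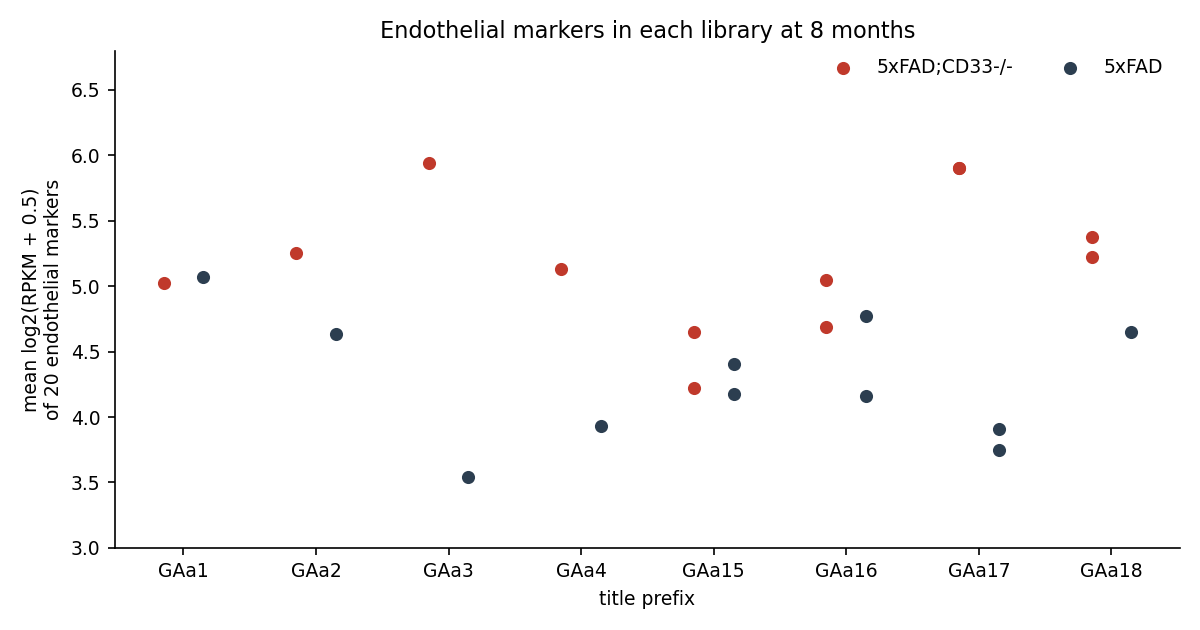
Mean log2(RPKM + 0.5) of 20 endothelial markers (vertical axis) in each 5xFAD;CD33-/- library (left of each pair) and 5xFAD library (right), by title prefix. The difference was 2.40 in GAa3 and 2.08 in GAa17 and was -0.04 in GAa1; the 2 knockout points of GAa17 overlie each other.

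Markers of other cell types had median log2 changes in both directions, and their part in the results was not tested. Over all genes the log2 change was above 0 in 4701 of 11345, with a median of -0.02. The median was 0.65 for erythrocyte markers (4 of 4 above 0), 0.49 for fibroblast markers (3 of 3), 0.40 for choroid plexus and ependyma markers (8 of 8), 0.21 for astrocyte (6 of 8) and oligodendrocyte markers (9 of 9), and -0.46 for neutrophil markers (0 of 9 above 0). Without prefix GAa17 the oligodendrocyte median was -0.11 with 2 of 9 above 0. Without 5xFAD;CD33-/- replicate 7 it was 0.02 with 6 of 9. The other medians kept their direction without GAa17, at 0.48 (erythrocyte), 0.25 (fibroblast), 0.14 (choroid plexus and ependyma), 0.10 (astrocyte) and -0.27 (neutrophil). Over all genes 3.30% passed, and lists this short would hold few calls at that share, so the counts below say little about these cells. None of the 10 tested mural markers passed (median log2 change 0.07), and Rgs5, a pericyte gene, was higher with the prefix as a block (log2 change 0.74, adjusted p = 0.0442, limma). The summed level of the 12 mural markers was 83.2 to 303 RPKM in 5xFAD;CD33-/- and 60.1 to 270 RPKM in 5xFAD. Of 9 tested oligodendrocyte markers Mal alone was higher (log2 change 1.00, SE 0.249, adjusted p = 0.0270, limma), with a summed level over the list of 114 to 311 RPKM in 5xFAD;CD33-/- and 98.1 to 196 RPKM in 5xFAD. Of the 7 tested monocyte markers 1 passed, Fn1 (log2 change 1.19, adjusted p = 0.0106, limma), a matrix protein that vessels also make. Without prefix GAa17 neither Mal (adjusted p = 0.361) nor Fn1 (adjusted p = 0.181) passed. Ccr2, the defining receptor of the monocyte list, was at 0.922 to 2.31 RPKM in 5xFAD;CD33-/- and 1.13 to 2.36 RPKM in 5xFAD. No member passed in the fibroblast (3 tested), astrocyte (8), choroid plexus and ependyma (8), erythrocyte (4), platelet (2), border-associated macrophage (10), neutrophil (9), T cell (2), B cell (4), dendritic cell (1) or neuron (1) lists. No NK cell or mast cell marker passed the filter on low values. The T cell markers Cd3d, Cd3e and Cd3g stayed at or under 0.505 RPKM in 5xFAD;CD33-/- and 0.268 RPKM in 5xFAD.

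Few members of the lists of microglial states passed. Of 9 stage 1 and 24 stage 2 genes of disease-associated microglia (DAM) none passed, beside 3.30% of all genes. DAM is the lipid-handling and phagocytic programme that appears around plaques. Lists this short would hold few calls at that share, so the count alone says little about cell state. The median log2 change was -0.08 in both lists, against -0.02 over all genes. The smallest p among stage 2 genes belonged to Cadm1, an adhesion molecule (log2 change -0.26, SE 0.0836, adjusted p = 0.101), followed by the tetraspanin Cd9 (-0.23, adjusted p = 0.190) and the integrin Itgax (-0.31, adjusted p = 0.243), all from limma. With the prefix as a block Cadm1 and Itgax passed as lower in limma, both at an adjusted p of 0.0409. In that fit 130 of all 11345 genes passed as lower. Without prefix GAa17 neither Cadm1 (adjusted p = 0.592) nor Itgax (adjusted p = 0.802) passed in limma. Itgax was at 160 ± 29.8 RPKM (SD, n = 12) in 5xFAD;CD33-/- and 199 ± 42.5 RPKM (n = 11) in 5xFAD.

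Of 22 homeostatic microglia genes, which mark resting cells, Mef2c alone passed, beside 3.30% of all genes. In 19 of 22 the log2 change was negative (median -0.18). Over all genes it was above 0 in 4701 of 11345, with a median of -0.02. Mef2c, a transcription factor that restrains microglial activation and an Alzheimer's risk gene, was at 48.4 to 68.3 RPKM with a median of 56.1 in 5xFAD;CD33-/-, against 60.1 to 72.0 RPKM with a median of 68.5 in 5xFAD (log2 change -0.21, SE 0.0567, adjusted p = 0.0353, limma), and it passed in 18 of the 41 fits. The fractalkine receptor gene Cx3cr1 had a log2 change of -0.21 (adjusted p = 0.250) and the identity factor Sall1 of -0.41 (adjusted p = 0.265), neither of which passed in limma. Without prefix GAa17 the list's median was -0.07 and none passed; with endothelial markers as a covariate the median was 0.13.

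The TREM2 and DAP12 signalling list had 17 tested members, and Vav2 alone passed, beside 3.30% of all genes. Vav2, a guanine exchange factor that acts below immune tyrosine kinases, was at 12.03 to 19.02 RPKM in 5xFAD;CD33-/- and 15.5 to 21.3 RPKM in 5xFAD (log2 change -0.30, SE 0.0693, adjusted p = 0.0195, limma; adjusted p = 0.258 without prefix GAa17). Syk, the kinase that carries the DAP12 signal, had a log2 change of -0.10 (SE 0.0673, adjusted p = 0.495) and the phosphatase gene Ptpn11, whose product binds inhibitory receptors such as human CD33, of 0.11 (SE 0.0615, adjusted p = 0.424), both from limma. The list's median was -0.08.

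Genes of the interferon response leaned upward as a set of values, though none passed, beside 3.30% of all genes. The log2 change was above 0 in 27 of 28 members, beside 4701 of 11345 over all genes. The list's median was 0.24 against -0.02 over all genes. It stayed between 0.17 and 0.28 when 1 library at a time was left out. Ifit1, an antiviral RNA-binding protein, was at 3.48 to 8.26 RPKM with a median of 5.06 in 5xFAD;CD33-/-, against 2.19 to 6.17 RPKM with a median of 3.24 in 5xFAD (log2 change 0.50, SE 0.143, adjusted p = 0.0523, limma). Ifi44 had a log2 change of 0.84 (SE 0.250, adjusted p = 0.0684) and Slfn5 of 0.54 (SE 0.158, adjusted p = 0.0619). With the prefix as a block Isg15, Oas1a, Ifi44 and Slfn5 passed as higher, beside 2.58% of all genes. Without prefix GAa17 the median was 0.25 with 27 of 28 above 0 and none passing, and with endothelial markers as a covariate it was 0.08.

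Cytokine and chemokine genes varied widely between libraries. Il1b, which encodes interleukin-1 beta, ran from 204 to 953 RPKM with a median of 381 in 5xFAD;CD33-/- and from 78.1 to 845 RPKM with a median of 336 in 5xFAD (log2 change 0.41, SE 0.327, adjusted p = 0.572, limma). None of 14 cytokine genes passed, and their median log2 change of 0.07 ran from -0.08 to 0.12 when 1 library at a time was left out. Of 16 chemokine genes Cx3cl1 alone passed; it encodes fractalkine, known from neurons and endothelium, and was at 2.87 to 7.86 RPKM in 5xFAD;CD33-/- and 1.98 to 4.51 RPKM in 5xFAD (log2 change 0.61, SE 0.165, adjusted p = 0.0422, limma). The call was lost with the prefix as a block (adjusted p = 0.0594) and without prefix GAa17 (adjusted p = 0.502), and with endothelial markers as a covariate the log2 change of Cx3cl1 was -0.06. None of 14 MHC class I and 7 MHC class II genes passed, with medians of 0.04 and -0.22. Over all genes 3.30% passed, so the cytokine, chemokine and MHC counts in such short lists say little.

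**Figure D5:**
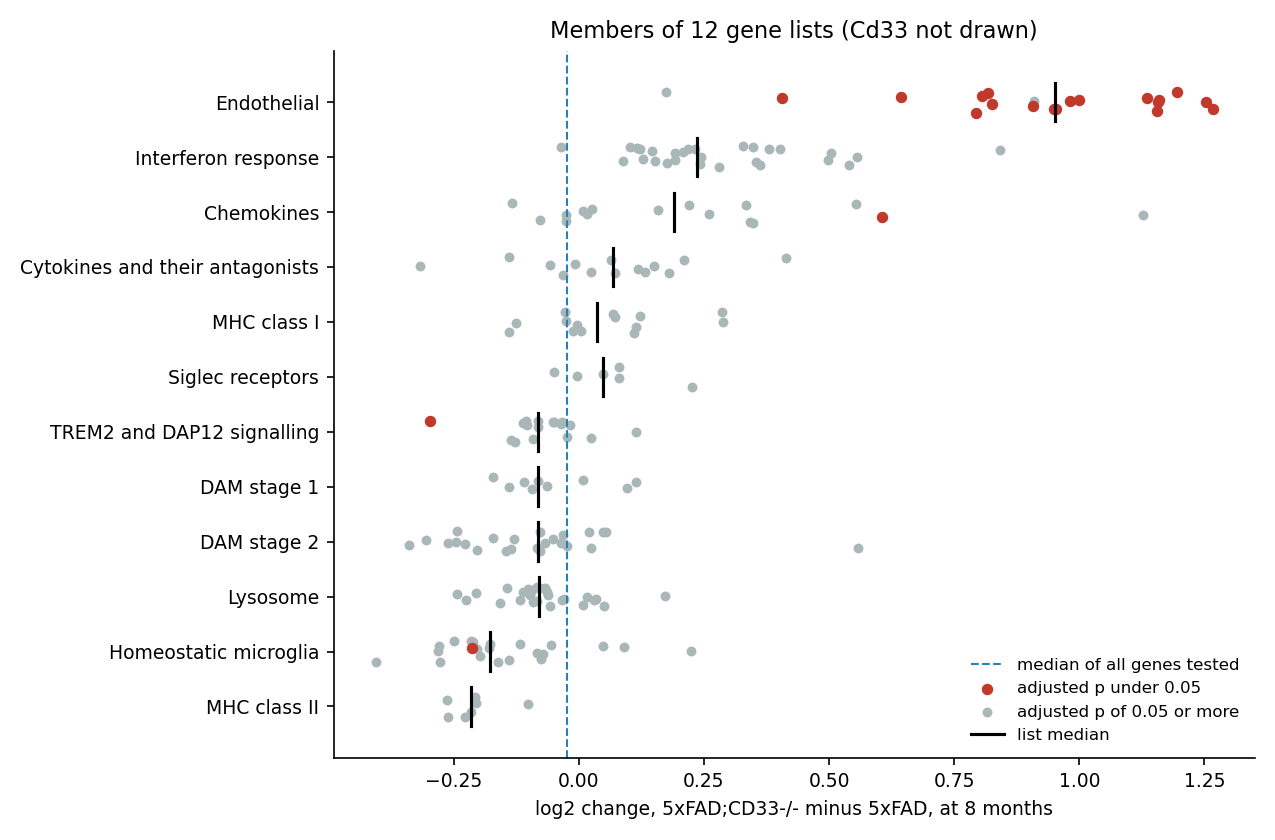
Log2 change (5xFAD;CD33-/- minus 5xFAD, horizontal axis) of the tested members of 12 gene lists, with list medians as black bars and the median of all genes, -0.02, as a dashed line. 18 of 20 endothelial markers passed, and 27 of 28 interferon response genes lay above 0 with none passing.

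In the remaining lists few genes passed, where 3.30% of all genes did. Among 13 iron-handling genes Cp, which encodes the ferroxidase ceruloplasmin, was higher (log2 change 0.68, SE 0.182, adjusted p = 0.0386, limma), and Ftl1 was lower. Without prefix GAa17 Cp did not pass (log2 change 0.64, adjusted p = 0.355), and Ftl1 did (adjusted p = 8.17e-08). Among 24 Alzheimer risk genes Cd33 and Mef2c were lower and Fermt2, an integrin activator, was higher (log2 change 0.89, adjusted p = 0.0281, limma). Timp3, a matrix-bound protease inhibitor, was higher among 14 matrix protease and inhibitor genes (log2 change 0.78, adjusted p = 0.0261, limma). Neither passed with the prefix as a block (adjusted p = 0.0549 for Fermt2 and 0.0503 for Timp3) or without prefix GAa17 (0.418 for Fermt2 and 0.361 for Timp3). With endothelial markers as a covariate Fermt2 had a log2 change of -0.11 and Timp3 of -0.09. No member passed in the lists of Fc and complement receptors (10 tested), Toll-like receptors and NF-kB (18), proliferation (10), immediate early and dissociation genes (21), phagocytosis and scavenger receptors (17), lysosome (26), cholesterol synthesis and uptake (17), cholesterol efflux and lipid storage (17), glycolysis (18), oxidative phosphorylation (20) or cytosolic ribosomal proteins (23).

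Genes on other chromosomes that were lower numbered 21, and all but 1 had log2 changes no further from 0 than that of Hsd17b1, -0.44. Tnfrsf17, the receptor BCMA, was at 11.6 ± 1.85 RPKM (SD, n = 12) in 5xFAD;CD33-/- and 14.7 ± 1.47 RPKM (n = 11) in 5xFAD (log2 change -0.33, SE 0.0773, adjusted p = 0.0194, limma). Hsd17b1, a steroid dehydrogenase, was named, as was Gm13394, after values were seen. Hsd17b1 was at 0.638 to 1.19 RPKM in 5xFAD;CD33-/- and 1.07 to 1.74 RPKM in 5xFAD (log2 change -0.44, SE 0.0780, adjusted p = 0.00594, limma). It was the sole lower gene outside chromosome 7 to pass without prefix GAa17 (adjusted p = 0.0150). The exception in size was Gm13394, a processed pseudogene (log2 change -3.02, SE 0.749, adjusted p = 0.0262, limma), whose level ran from 0.0329 to 15.6 RPKM in 5xFAD;CD33-/- and from 0.0931 to 58.8 RPKM in 5xFAD and did not pass without prefix GAa17 (adjusted p = 0.319).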

How the data were processed

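Per the labels' protocols, CD11b and CD45 sorted brain cells were profiled with a stranded kit, aligned with STAR to mm10 (GRCm38) and counted with HTSeq. The submitters' processing notes name edgeR with no role, with versions, annotation and strand setting not given in the sources used here. Per age, the authors deposited a table of RPKM values. RPKM times length gave whole reads for 100% of values (tolerance 0.05), recovered here with the authors' library factors. Positions come from GENCODE M21. The 4-month table held 13 columns of other groups, not used. Some items are not reported here.

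Tests used limma 3.58.1 (R 4.3.3) on log2(RPKM + 0.5), trended and robust, two-sided, with Benjamini-Hochberg adjustment over genes with RPKM of at least 1 in at least 11 libraries, checked on simulated data. Fold changes on this scale understate changes of low genes. Named genes were Cd33, Trem2, the 12 largest increases and decreases among called genes (provisional symbols left out) averaging at least 2 RPKM in 1 group or both, the 8 smallest p within 10 Mb of Cd33, and 3 per list; others were chosen after seeing values. Members and lists were chosen with earlier results of these data known. Alternatives covered pseudocount, filter, scaling, voom, weights, covariates, blocks and left-out libraries.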

Additional observations from a re-analysis of the deposited data

Results flagged for a closer look

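The difference between 5xFAD;CD33-/- and 5xFAD was not the same in title prefix GAa17 as in the other prefixes for 7 genes of 11345 (0.0617%), by a limma interaction test chosen after seeing the data. The interaction, the log2 change in GAa17 minus that in the other prefixes, was -0.74 for Gm9762 (adjusted p = 0.0183), 0.94 for the ciliary gene Bbs4 (0.0290), -1.51 for the chemokine receptor gene Ccr1 (0.0290), -1.36 for Gm9835 (0.0290), 2.05 for Sez6l2 (0.0328), -1.12 for Gm12734 (0.0343) and 0.90 for the survival gene Bcl2 (0.0437). None of the 7 passed in the comparison over all libraries. An unadjusted p under 0.05 was seen for 2895 genes (25.5%). Of the 20 endothelial markers 0 passed, with a median interaction of 1.52. In GAa17 Xist and Y-linked transcripts separate the groups, and genotype and sex cannot be told apart.

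At 4 months, 3 of 22 groups of values for the genes that never overlapped at 8 months had a library far from the others, where chance flags about 1 in 20. All were in 5xFAD (n = 9): the highest Fcgrt library stood at 118 RPKM with the next at 97.7, the lowest Ftl1 library at 172 RPKM with the next at 218, and the highest Ftl2 library at 0.128 RPKM with the next at 0.0511. In each gene the library remained outside the range of 5xFAD;CD33-/-. The flagged Ftl2 values lie near 0, where few reads separate libraries, so that flag carries little weight.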

How the results depend on the processing

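The main count of 374 genes (335 higher, 39 lower) kept within 1.5 times with a pseudocount of 0.1 or 1 and median-ratio scaling. The title prefix as a block gave 423 (293 higher, 130 lower), voom on recovered reads 305 (290 and 15), array weights 535 (143 lower), and no filter on low values 289 (268 and 21). The Xist covariate gave 308. A filter at 5 RPKM gave 145 (127 and 18), with fewer genes tested. The endothelial covariate gave 14 (8 and 6). It turned the log2 change of Abcb1a to -0.0917, Cldn5 to -0.11, Cx3cl1 to -0.0635, Fermt2 to -0.11, Timp3 to -0.0855 and Mal to -0.0806, none called there. The covariate holds Abcb1a and Cldn5 themselves, so part of their shift is built in.

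Of the alternatives chosen after seeing the data, leaving out prefix GAa17 gave 17 (9 and 8), the prefix block without GAa17 gave 35 (17 and 18), the prefix block with the Xist covariate 44 (21 and 23), and leaving out the 6 libraries that stood apart 271 (218 and 53). Libraries with and without Xist shared a prefix in GAa17 alone, where Xist goes with genotype. The prefix block with the Xist covariate is therefore not independent of leaving out GAa17. The sum of RPKM as a covariate gave 304 and the 6 libraries as a term 315. The cause was not tested. Leaving out 1 library gave 188 to 561 calls (168 to 458 higher, 18 to 103 lower) and a Cd33 log2 change of -7.65 to -7.17.

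The replicate numbers did not pair the samples: same-numbered libraries correlated between -0.54 and 0.66 in their deviations from group means. With the replicate block, 19 genes passed (12 higher, 7 lower). No other fit paired libraries by replicate number, and the title prefix was a block in separate fits. At 4 months, the share of genes not overlapping was 0.888%, and 0.923% with a filter at 5 RPKM. Of the 20 endothelial markers, 18 passed with all libraries. With the replicate block, the prefix block with Xist, or either fit without GAa17, 0 passed. The fit with prefix block and Xist is not independent of those without GAa17. With the endothelial covariate 0 passed too, but it is the mean of these 20 markers, so that outcome is built in.

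Depth limits chiefly the genes near 0 in 5xFAD (Ftl2, Slc6a16).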

Other observations

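The endothelial markers had the same direction of mean difference in the 4-month libraries: the 5xFAD;CD33-/- mean was higher for 20 of 20, and for none of them were the groups apart. Cdh5, the vascular cadherin gene, ran from 16.9 to 47.7 RPKM in 5xFAD;CD33-/- and from 7.80 to 49.9 RPKM in 5xFAD at 4 months. Cldn5 ran from 107 to 227 RPKM in 5xFAD;CD33-/- and from 47.0 to 347 RPKM in 5xFAD.

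Fas, the death receptor gene on chromosome 19, was named after its values were seen. At 8 months it stood at 1.76 to 5.15 RPKM with a median of 3.37 in 5xFAD;CD33-/-, against 0.668 to 2.35 RPKM with a median of 1.70 in 5xFAD (log2 change 0.91, SE 0.164, adjusted p = 0.00619, limma), higher within 8 of 8 title prefixes. Without prefix GAa17 its adjusted p was 0.168. At 4 months Fas ran from 2.65 to 8.72 RPKM in 5xFAD;CD33-/- and from 0.676 to 3.58 RPKM in 5xFAD.

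The processed pseudogene Gm11478 on chromosome 11, also named after its values were seen, was at 248 to 479 RPKM in 5xFAD;CD33-/- and 172 to 374 RPKM in 5xFAD (log2 change 0.55, SE 0.123, adjusted p = 0.0170, limma), and it passed without prefix GAa17 as well (adjusted p = 0.00538). Its reads may be shared with a parent gene.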
